A study of Homo sapiens with 8 samples.

Results

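A set of 10 glycolysis genes was followed across human pluripotent stem cells and the 3 germ layers made from them in culture: HK1, HK2, ALDOA, ALDOC, PGK1, ENO1, ENO2, PKM, LDHA and LDHB. They were taken as the rows of the combined long-read count table that carry one of these gene names and a gene name in the combined assembly, which gave 10 genes of 20096 named genes and 28 transcripts of 96614. Another 2 rows on the opposite strand of LDHB and PKM, with at most 3 reads in any library, had no gene name in the assembly and were left out. All 10 genes passed the filter on low counts.

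The study sequenced polyadenylated RNA of H1 cells, a long-established embryonic stem cell line, by long-read PacBio sequencing (Sequel II). There were 8 libraries, with 2 repeats for each of 4 groups. Undifferentiated cells (hPSC) were kept in mTeSR1 on Matrigel. Endoderm cells were grown in RPMI with low serum, WNT3A and Activin A. Mesoderm cells were grown in DMEM/F12 with low serum, VEGF, BMP4 and bFGF, with Activin A on the opening day only. Ectoderm cells were grown in DMEM/F12 with serum replacement and the inhibitors A83-01, PNU-74654 and Dorsomorphin. Doses and the time of collection are not given here, and the growth protocol states that time only after the ectoderm medium. Mesoderm and ectoderm shared a basal medium and differed in supplements, while the other groups each had a named medium of their own, so the effects of culture conditions and of germ layer cannot be told apart. All cells come from 1 line, and the labels do not say whether the repeats were separate cultures, so p-values measure the spread between these libraries.

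Glycolysis splits glucose into pyruvate in the cytosol. Hexokinases (HK1, HK2) add the initial phosphate to glucose, aldolases (ALDOA, ALDOC) split the sugar, phosphoglycerate kinase (PGK1) and pyruvate kinase (PKM) make ATP, enolases (ENO1, ENO2) make the substrate of pyruvate kinase, and lactate dehydrogenase subunits (LDHA, LDHB) interconvert pyruvate and lactate. Pluripotent stem cells are known for rapid glycolysis with lactate release, and for the M2 form of pyruvate kinase. PKM makes M1 or M2 by including exon 9 or exon 10, which are mutually exclusive.

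These exons are shown because the splice form of PKM rests on telling them apart. Both are coding exons of PKM on the minus strand of chromosome 15, and both sequences were read from GENCODE 29 transcripts on GRCh38. The M1 exon (exon 9) lies at chr15:72203022-72203188 and the M2 exon (exon 10) at chr15:72202454-72202620. Each is 167 nt long. They match at 105 positions without gaps (62.9%), and capitals mark the 62 positions at which they differ.
PKM M1 exon: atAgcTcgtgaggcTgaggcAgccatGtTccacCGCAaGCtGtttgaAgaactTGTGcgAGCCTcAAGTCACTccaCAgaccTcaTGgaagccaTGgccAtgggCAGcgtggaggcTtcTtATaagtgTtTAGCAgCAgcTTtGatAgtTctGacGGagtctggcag
PKM M2 exon: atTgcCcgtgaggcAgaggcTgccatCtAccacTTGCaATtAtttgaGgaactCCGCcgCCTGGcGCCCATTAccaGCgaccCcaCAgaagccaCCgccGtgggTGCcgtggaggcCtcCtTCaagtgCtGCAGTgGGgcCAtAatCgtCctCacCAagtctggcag

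No assembled PKM transcript held the M1 exon. The combined assembly listed 5 PKM transcripts, of which 3 included the M2 exon and 0 the M1 exon. The assemblies made for each group gave the same 0 for M1, with 4 PKM transcripts in endoderm, 3 in ectoderm and 1 each in hPSC and mesoderm. The 3 transcripts with the M2 exon took between 98.3% of PKM reads, in ectoderm repeat 2, and 99.7%, in mesoderm repeat 1. The M1 share was therefore fixed at 0 in all 8 libraries by the assembly, and a test across groups could not be fitted. The tables count reads only for assembled transcripts, so this 0 carries no counting limit for reads with the M1 exon. Whether such reads were dropped or counted to M2 transcripts cannot be seen. The percentages for M2 transcripts are therefore not a measure of the use of the M2 exon.

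**Figure D1:**
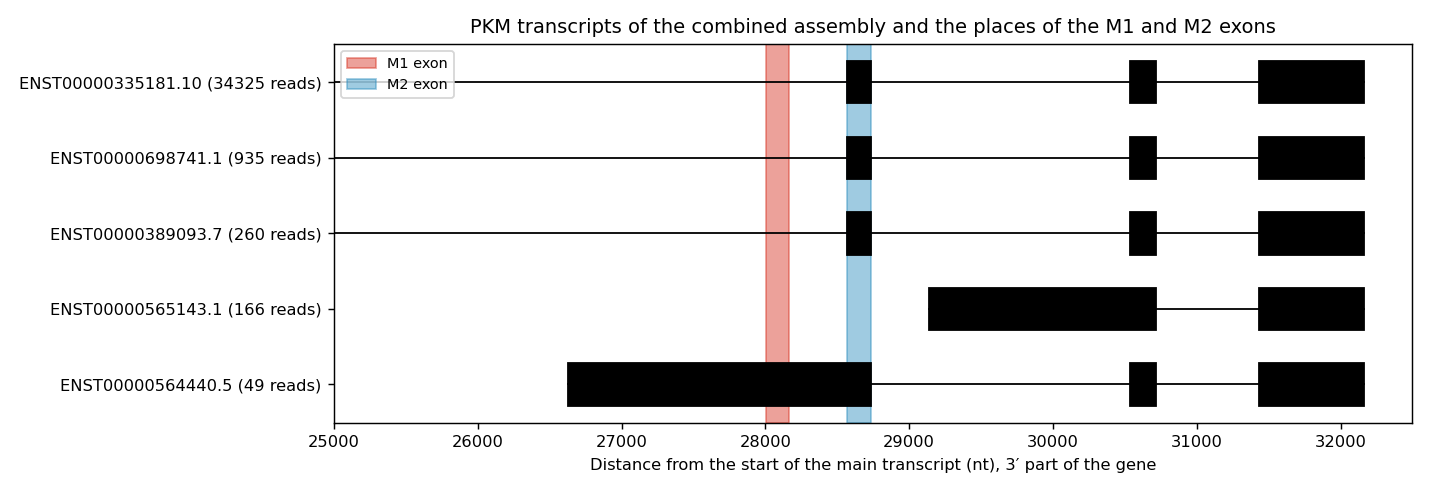
The 5 PKM transcripts of the combined assembly over the 3′ part of the gene, by distance from the start of the main transcript in nt (horizontal axis). Black boxes are exons, lines are introns, and the red and blue bands mark the M1 and M2 exons. The 3 long transcripts have an exon at M2 and none at M1, while the long first exon of ENST00000564440.5 (49 reads) runs across both bands.

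The remaining PKM forms were minor. The main transcript ENST00000335181.10 (PKM-202, 11 exons) took 34325 reads over all libraries. ENST00000698741.1, which has 12 exons, took 935 reads, and ENST00000389093.7 (PKM-203, 10 exons) took 260. A pair of forms annotated as retained introns, ENST00000565143.1 (2 exons, 2312 nt) and ENST00000564440.5 (3 exons, 3020.0 nt), took 166 and 49 reads. In the second of these the place of the M1 exon lies inside the retained intron.

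The groups carried most of their defining markers, but repeats of a group differed in some. SOX2, a core pluripotency factor, had 71 reads in hPSC repeat 1 and 5 in repeat 2, and SOX17, a factor of endoderm, had 150 and 16 in the endoderm repeats. In the fit described next, 4, 3 and 6 of 6 pluripotency markers fell in ectoderm, endoderm and mesoderm. Of the markers of each layer itself, 4 of 5 rose in ectoderm, 6 of 6 in endoderm, and 3 of 4 tested in mesoderm, where KDR fell and FOXF1 had 0 reads. Markers also rose outside their layer. In endoderm these were 2 of 5 ectoderm and 3 of 4 tested mesoderm markers. In ectoderm 1 of 4 tested mesoderm markers rose, and in mesoderm 1 of 6 endoderm markers. The shares over all genes are given with that fit. Library totals ran from 503840 to 1180888 reads, and 3 counts corresponded to between 2.54 and 5.95 CPM (counts scaled by library total). A read came from a transcript of 2975 to 3298 nt on average in the hPSC and endoderm libraries, 3765 and 3839.7 nt in mesoderm, and 4406 and 4650.3 nt in ectoderm.

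Most of the 10 genes fell in ectoderm and mesoderm, while in endoderm PKM rose and 3 genes fell. Differences were tested with edgeR's quasi-likelihood test over 10843 genes, with p-values adjusted over all of them by the Benjamini-Hochberg method and a threshold of 0.05. In ectoderm, 9 of 10 genes fell and 0 rose, where 24.8% of all genes tested fell and 23.9% rose. In mesoderm, 10 of 10 fell, where 18.3% of all genes fell and 16.9% rose. In endoderm, 1 of 10 rose and 3 fell, where 13.4% of all genes rose and 13.8% fell. This endoderm split was not stable. With no filter on low counts 2 rose and 2 fell, and the endoderm values shifted with the hPSC repeat kept, as given below. The median log2 fold change of the 10 genes was -2.01 in ectoderm, -2.05 in mesoderm and -0.51 in endoderm, against -0.01, 0.01 and -0.13 over all genes tested. The 3 comparisons share the hPSC libraries. In RNA from bulk cultures, fewer cells of a type and less RNA per cell cannot be told apart.

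**Figure D2:**
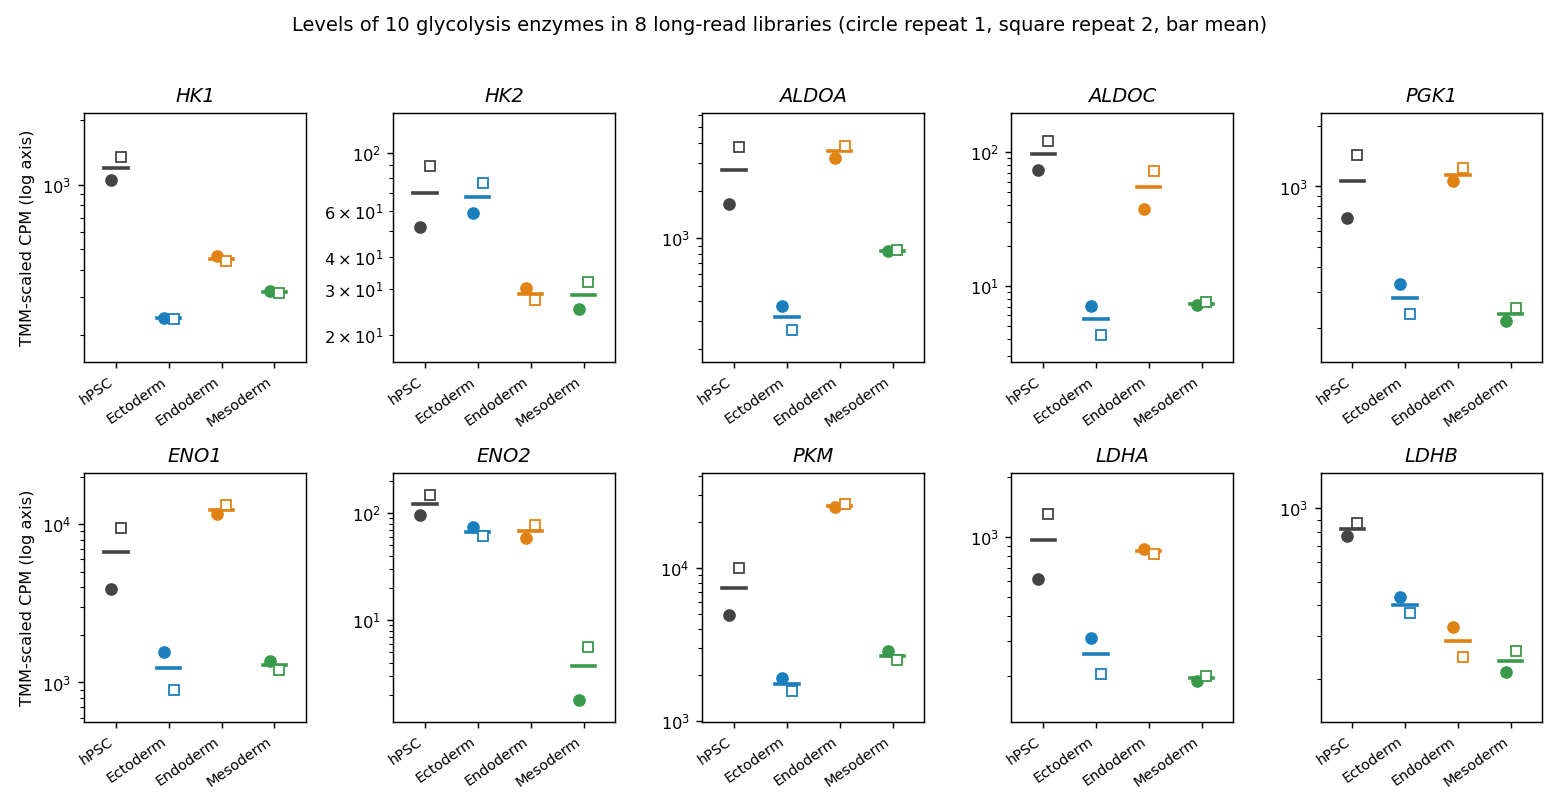
Levels of the 10 genes in every library, in TMM-scaled CPM on log axes that differ between panels. Filled circles are repeat 1, open squares repeat 2 and bars the mean of 2 libraries. Endoderm stood above the other groups for PKM and ENO1, and mesoderm stood lowest for ENO2.

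The levels below are CPM scaled by edgeR's TMM factors, which is the scale of the fitted fold changes. The hPSC repeats differed for these genes. Repeat 2 was above repeat 1 for all 10, from 1.13 times for LDHB to 2.41 times for ENO1. It was also the repeat with few SOX2 reads, and the part of this difference between repeats in the results was not tested beyond leaving each one out. Where a repeat is left out, its group has 1 library, and the p-value assumes that this library varies like those of the other groups. Without hPSC repeat 1, the endoderm log2 fold changes of ALDOA, PGK1, ENO1, PKM and LDHA were -0.08, -0.32, 0.40, 1.36 and -0.62. Without hPSC repeat 2 they were 1.11, 0.71, 1.66, 2.39 and 0.46. The other genes stayed negative in endoderm both times. In mesoderm all 10 stayed negative both times, and in ectoderm all but HK2, at -0.39 and 0.44.

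HK1 (chr10:69278531-69401882, as for all genes on GRCh38 and spanning the assembled transcripts), the hexokinase found in most tissues, fell in all 3 layers. Its level was 1053 and 1343 CPM in undifferentiated cells, 464 and 439 in endoderm, 319 and 313 in mesoderm, and 239 and 238 in ectoderm. Every layer library lay below both hPSC libraries. The log2 fold change was -2.33 (SE 0.29, adjusted p = 2.56e-05) in ectoderm, -1.41 (SE 0.29, adjusted p = 0.0021) in endoderm and -1.92 (SE 0.29, adjusted p = 0.000134) in mesoderm. HK2 (chr2:74834122-74893359), the hexokinase known for its induction in growing cells, was read far less deeply, with 11 to 90 reads in a library. Its level was 51.9 and 88.9 CPM in the hPSC libraries, 58.6 and 77.0 in those of ectoderm, 25.1 and 31.9 in mesoderm, and 30.3 and 27.3 in endoderm. Ectoderm overlapped hPSC, while endoderm and mesoderm lay below it. HK2 fell by 1.27 on the log2 scale in endoderm (SE 0.41, adjusted p = 0.0299) and fell by 1.29 in mesoderm (SE 0.39, adjusted p = 0.018). The ectoderm value was -0.05 (SE 0.33, adjusted p = 0.923). Both HK2 calls were lost without hPSC repeat 2, with adjusted p of 0.136 and 0.112. The endoderm call passed the threshold in 6 of 15 alternatives (adjusted p from 0.00152 to 0.174), and was also lost without either repeat of any layer (log2 fold changes from -1.27 to -1.10), with no filter on low counts (adjusted p = 0.0502) and by DESeq2 (0.136). The mesoderm call passed in 11 of 15 (adjusted p from 0.000413 to 0.153), and was also lost without either mesoderm repeat and by DESeq2 (0.092).

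The HK2 share of hexokinase reads was highest in ectoderm. Of the HK1 and HK2 reads of a library, HK2 made up 4.70% and 6.21% in undifferentiated cells, 6.13% and 5.85% in endoderm, 7.29% and 9.24% in mesoderm, and 19.7% and 24.5% in ectoderm. The group means were 22.1% ± 3.35 in ectoderm, 8.27% ± 1.38 in mesoderm, 5.99% ± 0.199 in endoderm and 5.45% ± 1.07 in hPSC (SD, n = 2 each). Permuting the libraries exactly, with F as the statistic, over the 105 ways to split the 8 libraries into 4 pairs gave p = 0.0286, and adjusted p = 0.0381 over the 4 shares that could be tested. The smallest p this design allows is 0.00952. The call was lost without either ectoderm repeat (adjusted p = 0.0571 and 0.0508), without endoderm repeat 2 (0.0635) and without either mesoderm repeat (0.0571 and 0.0762).

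ALDOA (chr16:30064274-30070414), the aldolase of muscle and most growing cells, fell in ectoderm and mesoderm. Its level was 1636 and 3760.2 CPM in the hPSC libraries, 377 and 265 in those of ectoderm, 832 and 839 in mesoderm, and 3223 and 3840 in endoderm. Endoderm overlapped hPSC, and the other layers lay below it. The log2 fold change was -3.07 (SE 0.41, adjusted p = 4.02e-05) in ectoderm and -1.69 (SE 0.39, adjusted p = 0.00344) in mesoderm, with 0.39 (SE 0.38, adjusted p = 0.477) in endoderm. ALDOC (chr17:28573115-28576931), the aldolase best known from brain, had 73.0 and 122 CPM in undifferentiated cells, 37.3 and 71.9 in endoderm, 7.16 and 7.50 in mesoderm, and 7.06 and 4.28 in ectoderm. Only 15 ALDOC reads were counted in ectoderm and 8 in mesoderm, against 93 in hPSC. ALDOC fell by 4.03 on the log2 scale in ectoderm (SE 0.45, adjusted p = 8.91e-06) and fell by 3.69 in mesoderm (SE 0.51, adjusted p = 5.83e-05). Its endoderm value was -0.83 (SE 0.39, adjusted p = 0.123). As a share of both aldolases, ALDOC reads were 4.27% and 3.15% in the hPSC libraries, 1.84% and 1.59% in those of ectoderm, 0.853% and 0.887% in mesoderm, and 1.14% and 1.84% in endoderm (exact permutation p = 0.019, adjusted 0.0381). The hPSC libraries held the highest shares. That call was lost without either ectoderm repeat (adjusted p = 0.0635 and 0.0508) and without either mesoderm repeat (0.0762 in both).

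PGK1 (chrX:78104248-78129295), whose gene lies on the X chromosome, had a single assembled transcript, ENST00000373316.5. Its level was 699 and 1436 CPM in undifferentiated cells, 1061 and 1227 in endoderm, 217 and 251 in mesoderm, and 329 and 234 in ectoderm. PGK1 fell by 1.92 on the log2 scale in ectoderm (SE 0.36, adjusted p = 0.000525) and fell by 2.19 in mesoderm (SE 0.37, adjusted p = 0.000318). In endoderm the value was 0.10 (SE 0.35, adjusted p = 0.87), and its libraries lay between the hPSC repeats.

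ENO1 (chr1:8860997-8879092), the enolase of most cells, fell in the same pair of layers. Its level was 3916 and 9444 CPM in the hPSC libraries, 1563 and 901 in those of ectoderm, 1375 and 1201 in mesoderm, and 11566 and 13193 in endoderm. Both endoderm libraries lay above hPSC, yet the log2 fold change of 0.89 (SE 0.43, adjusted p = 0.136) did not pass the threshold. The ectoderm value was -2.44 (SE 0.45, adjusted p = 0.000478) and the mesoderm value -2.37 (SE 0.45, adjusted p = 0.000828). Without hPSC repeat 2, the endoderm value became 1.66 (adjusted p = 3.71e-05, with the spread taken from the layer libraries alone).

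ENO2 (chr12:6914321-6923696), the enolase known from neurons, was nearly unread in mesoderm. Its level was 96.03 and 149 CPM in undifferentiated cells, 58.3 and 76.8 in endoderm, 1.79 and 5.63 in mesoderm, and 74.1 and 60.8 in ectoderm. The mesoderm libraries had 1 and 3 ENO2 reads. Pooled over repeats and scaled to library totals, ENO2 was 27.99 times higher in hPSC than in mesoderm (95% exact conditional interval 10.6 to 104, counting error only). The fitted log2 fold change in mesoderm was -4.99 (SE 0.53, adjusted p = 4.35e-06). The endoderm value was -0.85 (SE 0.35, adjusted p = 0.0822). The ectoderm value was -0.85 (SE 0.32, adjusted p = 0.0373), which passed the threshold in only 2 of 15 alternatives (adjusted p from 0.000868 to 0.354). It was lost without hPSC repeat 2 (adjusted p = 0.24) and without either repeat of any layer. The ENO2 share of both enolases was 2.39% and 1.55% in the hPSC libraries, 4.53% and 6.32% in those of ectoderm, 0.13% and 0.467% in mesoderm, and 0.502% and 0.579% in endoderm (exact permutation p = 0.00952, the smallest possible, adjusted 0.0381). Ectoderm held the highest shares, with ENO1 5.42 times lower there than in hPSC. Without mesoderm repeat 1 the adjusted p was 0.0571.

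Markers of other cells were read beside ENO2, ALDOC and PKM. A list of 8 neuron genes was summed. Their summed level was 265 to 445 CPM in hPSC, 275 to 292 in ectoderm, 2260 to 2506 in endoderm and 60.9 to 71.3 in mesoderm, with ELAVL4 at 0 in every group. Most of the endoderm sum was TUBB3 (2209 and 2452 CPM). MAP2 and SYT1 rose in ectoderm, while TUBB3 fell by 4.002 there on the log2 scale (SE 0.38, adjusted p = 1.69e-06). Of the 4 neuron genes tested, 2 rose and 1 fell in ectoderm, 2 rose in endoderm and 1 fell in mesoderm. A list of 6 muscle genes summed to 40.3 to 53.4 CPM in hPSC, 21.9 to 28.2 in ectoderm, 260 to 466 in endoderm and 233 to 379 in mesoderm, with MYH6 at 0 in every group. Of its 3 tested genes, 1 fell in ectoderm, and 2 rose in endoderm and 2 in mesoderm. The shares over all genes tested were given above for each layer. The part of such cells in the ENO2, ALDOC and PKM values was not tested.

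PKM (chr15:72199025-72231278), which catalyses the last step, moved in opposite directions between layers. Its level was 4882 and 10004 CPM in undifferentiated cells, 24957 and 26174 in endoderm, 2845 and 2495 in mesoderm, and 1892 and 1572 in ectoderm. Both endoderm libraries lay above hPSC, and the other layers lay below it. PKM rose 3.44-fold in endoderm (log2 fold change 1.78, SE 0.41, adjusted p = 0.00487). It fell by 2.10 on the log2 scale in ectoderm (SE 0.42, adjusted p = 0.000859) and fell by 1.48 in mesoderm (SE 0.41, adjusted p = 0.0113). The rise in endoderm passed the threshold in 15 of 15 alternatives, with log2 fold changes from 1.36 to 2.39 (adjusted p from 3.52e-08 to 0.0156). The fall in mesoderm was lost without mesoderm repeat 1 (adjusted p = 0.0659) and without mesoderm repeat 2 (adjusted p = 0.0993). PKM took 58.6% and 56.8% of the reads of the 10 genes in endoderm, against 35.4% and 35.1% in hPSC, 35.8% and 40.0% in ectoderm, and 47.2% and 44.5% in mesoderm.

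LDHA (chr11:18394560-18408425), the subunit that dominates in glycolytic tissue, fell in ectoderm and mesoderm. Its level was 613 and 1308 CPM in the hPSC libraries, 311 and 204 in those of ectoderm, 188 and 201 in mesoderm, and 870 and 816 in endoderm. The log2 fold change was -1.90 (SE 0.36, adjusted p = 0.000644) in ectoderm, -2.30 (SE 0.38, adjusted p = 0.000246) in mesoderm and -0.19 (SE 0.35, adjusted p = 0.742) in endoderm. LDHB (chr12:21635334-21657842), the subunit typical of heart, had 770 and 874 CPM in undifferentiated cells, 327 and 245 in endoderm, 213 and 261 in mesoderm, and 432 and 373 in ectoderm. All layer libraries lay below hPSC. LDHB fell by 1.52 on the log2 scale in endoderm (SE 0.30, adjusted p = 0.0016) and fell by 1.79 in mesoderm (SE 0.30, adjusted p = 0.000327). It fell by 1.03 in ectoderm (SE 0.29, adjusted p = 0.00849), but the value became 0.12 (adjusted p = 0.758) once the trend of counts on transcript length was removed from each library. That call was also lost without ectoderm repeat 1 (adjusted p = 0.0561) and without ectoderm repeat 2 (adjusted p = 0.133), and with library totals alone (log2 fold change -0.56, adjusted p = 0.0774).

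The LDHA share of both subunits was highest in endoderm. It was 44.3% and 59.9% in the hPSC libraries, 41.8% and 35.3% in those of ectoderm, 46.9% and 43.5% in mesoderm, and 72.7% and 76.9% in endoderm. The exact permutation test gave p = 0.0381 and adjusted p = 0.0381. Both endoderm libraries lay above every other library, and the hPSC repeats lay far apart. The call was lost without hPSC repeat 2 (adjusted p = 0.0571), either ectoderm repeat (0.0857 and 0.105), endoderm repeat 2 (0.162) or either mesoderm repeat (0.0857 and 0.105).

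**Figure D3:**
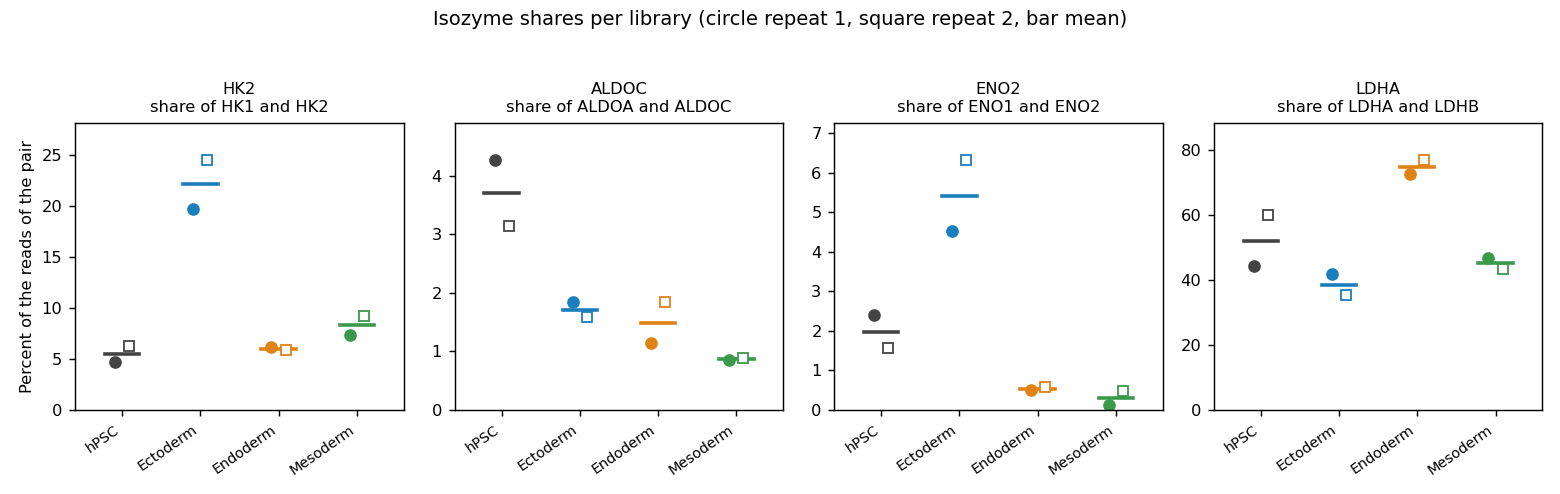
Share of HK2, ALDOC, ENO2 and LDHA among the reads of their isozyme pair, in percent, per library. Filled circles are repeat 1, open squares repeat 2 and bars the mean of 2 libraries. HK2 and ENO2 shares were highest in ectoderm (22.1% and 5.42% on average), ALDOC shares in hPSC (3.71%) and LDHA shares in endoderm (74.8%).

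**Figure D4:**
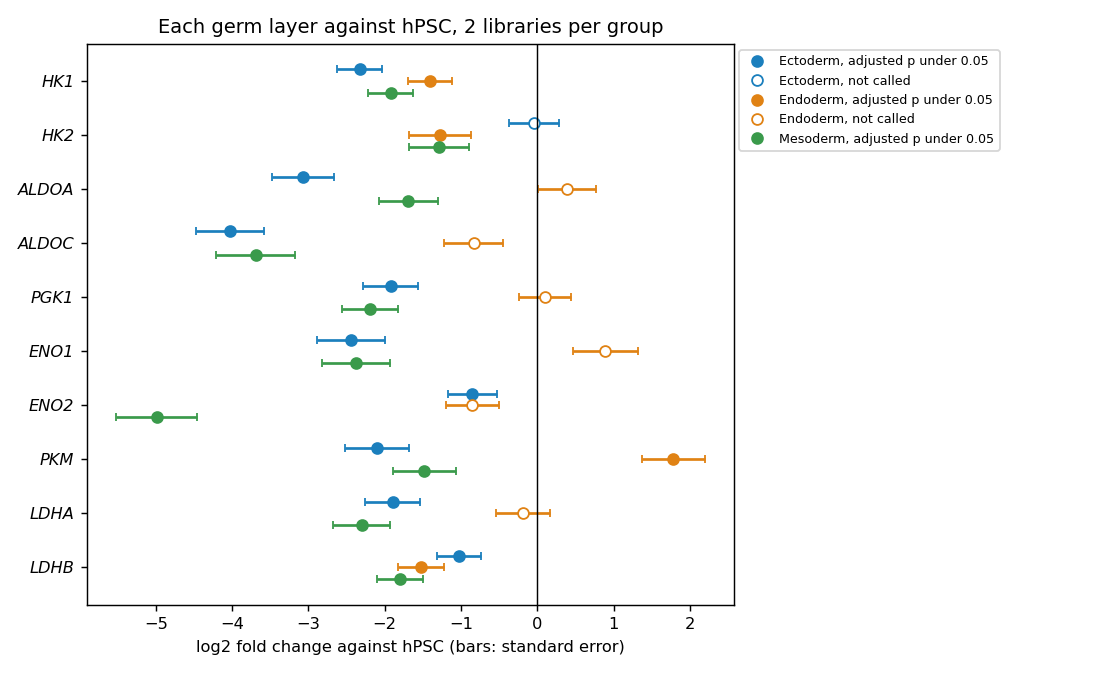
Log2 fold change of each gene in each layer against hPSC on the horizontal axis, with standard errors from the edgeR fit. Filled points had an adjusted p under 0.05. All mesoderm points lie left of 0 and are filled, all ectoderm points but HK2 are filled and left of 0, and PKM in endoderm, at 1.78, is the only filled point to the right.

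Layers were also compared with each other. Between endoderm and mesoderm, 7 of 10 genes were higher in endoderm and 0 lower, where 23.3% of all genes were higher and 23.8% lower. These were ALDOA, ALDOC, PGK1, ENO1, ENO2, PKM and LDHA, with the largest fold for ENO2 (17.6-fold) and then ENO1 (9.61-fold) and PKM (9.57-fold). The ENO2 fold rests on 1 and 3 mesoderm reads, and its log2 fold change ran from 3.53 to 5.10 over the alternatives. Between ectoderm and endoderm, 1 of 10 was higher in ectoderm (HK2) and 7 lower, where 33.1% of all genes were higher and 30% lower. PKM was 14.8-fold lower in ectoderm than in endoderm (log2 fold change -3.88, SE 0.45, adjusted p = 4.46e-06), ALDOA 11-fold and ENO1 10.0-fold. The HK1 call of that comparison was lost without either ectoderm repeat and without endoderm repeat 1 (adjusted p up to 0.0719), and with library totals alone (log2 fold change -0.10, adjusted p = 0.685). The HK2 call was lost without ectoderm repeat 2 and without endoderm repeat 2 (adjusted p up to 0.0637), by DESeq2 and with the length trend removed (log2 fold change 0.41, adjusted p = 0.382). Scaled by library totals alone, the comparison gave 3 genes higher and 6 lower. Between ectoderm and mesoderm, 2 of 10 were higher in ectoderm (HK2 and ENO2) and 1 lower (ALDOA), where 18.1% of all genes were higher and 17.3% lower. ENO2 differed 17.6-fold there (adjusted p = 3.19e-05). The HK2 and ALDOA calls of that comparison were lost without ectoderm repeat 2 and without either mesoderm repeat, which left 1 call. Both were also lost with the length trend removed (log2 fold changes 0.91 and -0.79), and HK2 by DESeq2. HK2 passed in 10 of 15 alternatives (adjusted p from 0.000373 to 0.126) and ALDOA in 11 of 15 (9.38e-07 to 0.136). The comparison had 5 calls without hPSC repeat 1, and 5 without hPSC repeat 2.

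The ectoderm and mesoderm libraries, in which most of the 10 genes were low, also held longer transcripts. The main transcripts of 7 of the 10 genes were 2552 nt or shorter, below every library mean, while those of HK1, PGK1 and HK2 were 3615, 4812 and 5629 nt. The part of length in the changes was not tested beyond the values that follow. With the length trend removed in each library, 7 genes fell in ectoderm, 10 in mesoderm and 3 in endoderm, where PKM still rose. The shares of all genes called in that setting are not given here. With library totals alone and no TMM factor, 7 fell in ectoderm, 10 in mesoderm and 5 in endoderm, where 1 rose. That scaling moved the median log2 fold change of all genes to 0.43 in ectoderm, -0.48 in endoderm and 0.25 in mesoderm.

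Within genes, the choice of transcript was tested with edgeR's diffSpliceDGE (gene-level F test, adjusted over 2634 genes with at least 2 tested transcripts). The 10 genes gave 0 calls in ectoderm, 0 in endoderm and 2 in mesoderm (LDHA and ALDOA), where 5.66%, 5.05% and 7.02% of all genes tested were called. Without hPSC repeat 1, ectoderm had 4 calls (ALDOA, ENO1, LDHA and PKM). At an unadjusted p under 0.05, ectoderm had 4 of the 8 tested genes (ALDOA, ENO1, LDHA and PKM), endoderm 0 and mesoderm 2, where 17.5%, 18% and 18.5% of all genes tested were below it. With Simes p-values in place of the F test, ectoderm and endoderm had 0 calls and mesoderm 1.

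In mesoderm, LDHA reads moved toward a transcript that starts further into the gene. The main transcript ENST00000422447.8 (LDHA-205) starts at chr11:18394560 and runs on the plus strand, and ENST00000379412.9 (LDHA-203), also protein coding, starts 1718 nt downstream. The downstream form took 6.27% and 3.57% of LDHA reads in the hPSC libraries, 4.02% and 5.17% in endoderm, 8.64% and 12.2% in ectoderm, and 32.4% and 11.2% in mesoderm. Mesoderm repeat 1 stood apart, with 34 reads of the downstream form against 71 of the main one, while repeat 2 had 12 against 95. The mesoderm call (adjusted p = 0.00401) was lost without mesoderm repeat 1 (adjusted p = 0.381), and without mesoderm repeat 2 the adjusted p was 0.0111. In mesoderm, ALDOA reads moved away from a transcript that starts 1486 nt upstream of the main one. This form, ENST00000563060.6 (ALDOA-206), took 4.69% and 5.62% of ALDOA reads in the hPSC libraries, 5.07% and 5.62% in endoderm, 10.5% and 11.7% in ectoderm, and 1.72% and 0.447% in mesoderm. The mesoderm counts were 8 and 2 reads. Its call (adjusted p = 0.0391) was lost when any 1 of the ectoderm, endoderm or mesoderm libraries was left out, with adjusted p from 0.0606 to 0.338, and with the replicate number as a block (adjusted p = 0.0692).

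The retained-intron form of ENO1, ENST00000464920.2, took 2.11% and 1.72% of ENO1 reads in the hPSC libraries, 2.20% and 1.82% in endoderm, 4.06% and 4.75% in ectoderm, and 3.13% and 3.28% in mesoderm (ectoderm adjusted p = 0.0867). The 2-exon PKM form ENST00000565143.1 took 0.354% and 0.378% in hPSC and 1.04% and 1.63% in ectoderm (adjusted p for PKM = 0.084). The 12-exon PKM form took 2.20% and 1.73% in hPSC and 3.19% and 2.90% in endoderm (adjusted p for PKM = 0.788). For HK1, the form that starts 40303 nt upstream of the main transcript, ENST00000643399.2, took from 3.55% in ectoderm repeat 1 to 9.60% in endoderm repeat 2. For HK2, ENST00000409174.1 starts 1159 nt downstream of the main form and took from 0% of 13 reads in endoderm repeat 1 to 42.9% of 14 in mesoderm repeat 1, a range set on few reads. For LDHB, ENST00000396076.5 starts 48 nt downstream and took from 2.04% to 6.42%. ENO2 reads outside mesoderm were spread over 3 forms, with 53.3% to 67.2% in the main ENST00000229277.6. The main form of ALDOC had 3 to 48 reads in a library, and ENST00000395321.6, which starts 36 nt upstream of it, had 0 to 7. Another ALDOC form, hEDT_00041230, which has no reference name, had 2 reads in hPSC repeat 1 and 1 in mesoderm repeat 2. HK1, HK2, ENO2 and LDHB had no call for transcript choice in any layer against hPSC, and ALDOC and PGK1 were not tested.

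**Figure D5:**
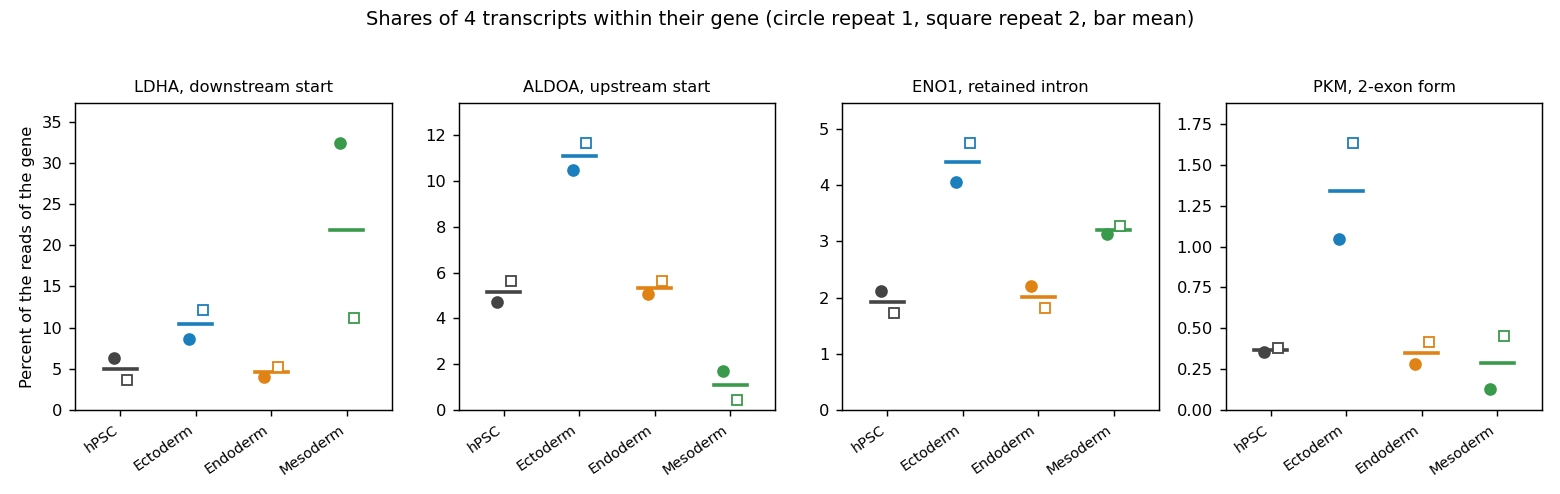
Share of 4 minor transcripts among the reads of their gene, in percent, per library. Filled circles are repeat 1, open squares repeat 2 and bars the mean of 2 libraries. The downstream-start form of LDHA reached 32.4% and 11.2% in mesoderm, and the upstream-start form of ALDOA had 1.72% and 0.447% there.

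Sequence upstream of the start was examined for the core motif ACGTG on either strand, which the hypoxia factor HIF1A binds and which the MYC motif CACGTG contains on both strands. In RefSeq promoter windows (250 bases before to 50 after the start, GRCh38.p14), 6 of the 10 genes held ACGTG: HK2, ALDOA, ALDOC, PGK1, ENO2 and LDHA. Over all 27305 promoters of this length, 5900 (21.6%) held it. CACGTG was found in 2 of the 10 (ALDOC and LDHA) and in 2030 of all promoters (7.44%). PKM, ENO1, LDHB and HK1 held neither in this window. The RefSeq start of HK1 lies 48834 nt upstream of the main assembled transcript and that of ALDOA 1481 nt upstream, so those windows do not cover the main starts read here. The ALDOA window does hold the start of the minor form ENST00000563060.6. The main ENO2 start lies 259 nt upstream of the RefSeq one, outside its window, so the ACGTG counted for ENO2 is not upstream of the main start. The PGK1 and LDHA windows are shown as examples of windows that hold the motif. Both genes fell in ectoderm and mesoderm, and so did PKM, ENO1, LDHB and HK1, which held neither motif. HK2, which held ACGTG, had no call in ectoderm. The part of the motif in these changes was not tested. Only the bases upstream of every annotated exon are given, on the plus strand, with capitals at each ACGTG or CACGT and at CACGTG. The whole windows held more sites than the bases shown. They had 3 ACGTG or CACGT for PGK1 and 5 for LDHA, where CACGTG was found 2 times and counts as both.
PGK1, chrX:78103998-78104173: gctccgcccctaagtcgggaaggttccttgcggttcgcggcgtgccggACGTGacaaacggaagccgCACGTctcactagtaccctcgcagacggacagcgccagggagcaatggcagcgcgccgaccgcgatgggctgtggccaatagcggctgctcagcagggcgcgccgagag
LDHA, chr11:18394313-18394387: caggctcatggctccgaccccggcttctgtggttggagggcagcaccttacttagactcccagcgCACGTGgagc

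The rest of the pathway was read from a list of 20 other glycolysis genes, of which 14 had reads and 10 were tested. In ectoderm 6 fell and 0 rose, in mesoderm 6 fell and 1 rose, and in endoderm 0 fell and 2 rose. Over all genes tested, 24.8% fell and 23.9% rose in ectoderm, 18.3% and 16.9% in mesoderm, and 13.8% and 13.4% in endoderm. Without endoderm repeat 1 the endoderm count of calls was 1, and without hPSC repeat 2 it was 4. The mesoderm count was 4 without either mesoderm repeat. With library totals alone, 2 rose and 2 fell in endoderm, and 1 rose and 5 fell in ectoderm. The median log2 fold change was -1.55, -1.15 and 0.061 in ectoderm, mesoderm and endoderm. GPI, which isomerises glucose phosphate, fell by 2.04 in ectoderm (SE 0.36, adjusted p = 0.000389) and fell by 2.01 in mesoderm (SE 0.38, adjusted p = 0.00075). GAPDH, the dehydrogenase in the middle of the pathway, fell by 2.54 in ectoderm (adjusted p = 8.03e-05) and fell by 1.36 in mesoderm (adjusted p = 0.00786). TPI1, which interconverts the triose phosphates, had log2 fold changes of -2.25 and -2.27 there, and PGAM1, the mutase before enolase, of -2.29 and -2.67 (all called). In endoderm these 4 genes had values from -0.12 to 0.51, none past the threshold. Of the phosphofructokinase genes, PFKP fell in ectoderm (-1.77, adjusted p = 0.000367) and mesoderm (-1.11, adjusted p = 0.0125), PFKM fell in mesoderm (-1.20, adjusted p = 0.00932), and PFKL rose in endoderm (1.25, SE 0.30, adjusted p = 0.00573). The ectoderm and endoderm values of PFKM were -0.30 and -0.27, which did not pass. PFKL had 595 and 567 CPM in undifferentiated cells, 1289.8 and 1485 in endoderm, 1149 and 856 in mesoderm, and 540 and 566 in ectoderm. Its mesoderm log2 fold change of 0.79 only just passed (SE 0.30, adjusted p = 0.049995). The other calls, named here after their values were seen, were ENO3 (lower in ectoderm) and ADPGK (higher in endoderm).

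Neighbouring pathways were taken from lists of the same kind. Of 7 pentose phosphate genes, 4 fell and 1 rose in ectoderm, 3 fell in mesoderm and 1 rose in endoderm. TALDO1 (transaldolase) fell by 3.32 in ectoderm (SE 0.34, adjusted p = 3.53e-06), TKT (transketolase) fell by 3.29 (SE 0.36, adjusted p = 7.03e-06) and PGD fell by 2.14 (SE 0.33, adjusted p = 0.000132). Of 4 tested genes for glucose and lactate transport, 1 fell in ectoderm, 1 rose and 1 fell in endoderm, and 1 rose and 2 fell in mesoderm. SLC2A3, the glucose transporter GLUT3, had 1223 and 2190.3 CPM in the hPSC libraries, 1991 and 2189.6 in those of ectoderm, 7571 and 7669.7 in mesoderm, and 18159.9 and 14872 in endoderm. It rose in endoderm (3.27, SE 0.41, adjusted p = 3.53e-05) and mesoderm (2.16, SE 0.39, adjusted p = 0.000618). SLC16A1, a lactate transporter, fell by 1.59 in mesoderm (SE 0.30, adjusted p = 0.000751), and BSG, its partner protein, fell by 1.70 in ectoderm (SE 0.40, adjusted p = 0.00274).

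Of 12 tested genes for the entry of pyruvate into mitochondria, 2 rose and 4 fell in ectoderm, 1 rose and 1 fell in endoderm, and 2 rose and 2 fell in mesoderm. The shares over all genes are those given for the pathways above. DLD, a shared subunit of the pyruvate dehydrogenase complex, rose in ectoderm (1.39, SE 0.31, adjusted p = 0.00197), PDP2 fell by 1.597 there (SE 0.36, adjusted p = 0.00221), and MPC2, a subunit of the mitochondrial pyruvate carrier, rose in mesoderm (1.72, SE 0.37, adjusted p = 0.00207). Of 4 tested genes that set the activator of phosphofructokinase, 1 fell in ectoderm, 1 rose and 1 fell in endoderm, and 1 fell in mesoderm. PFKFB3 rose in endoderm (1.72, SE 0.42, adjusted p = 0.00668) and PFKFB2 fell by 2.19 in mesoderm (SE 0.56, adjusted p = 0.00726).

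Known regulators were called both higher and lower, as genes were at large. Among the 10843 genes tested, each direction took from 13.4% (higher, endoderm) to 24.8% (lower, ectoderm). Whether the lists below depart from such shares was not tested. Of 7 genes listed as regulators of PKM splicing, 2 rose and 2 fell in ectoderm, 2 fell in endoderm and 1 fell in mesoderm. SRSF3 fell by 1.67 in ectoderm (SE 0.30, adjusted p = 0.000365), and PTBP2 and NEK2 rose there (2.19 and 1.77). The part of these genes in PKM splicing was not tested. Of 8 hypoxia and MYC factors, 2 rose and 1 fell in ectoderm, 1 rose and 1 fell in endoderm, and 3 rose and 2 fell in mesoderm. MYC had 219 and 262 CPM in undifferentiated cells, 65.3 and 49.6 in endoderm, 39.4 and 56.3 in mesoderm, and 21.9 and 22.3 in ectoderm. It fell by 3.44 in ectoderm (SE 0.33, adjusted p = 1.72e-06). HIF1A rose in ectoderm (3.16, SE 0.36, adjusted p = 1.09e-05), and EPAS1, which encodes HIF-2 alpha, rose in mesoderm (7.72, SE 0.47, adjusted p = 5.75e-08), where it had 1563 and 1580 CPM against 3.84 and 11.1 in hPSC. Of 9 tested HIF targets outside glycolysis, 3 rose and 3 fell in ectoderm, 2 rose and 3 fell in endoderm, and 2 rose and 2 fell in mesoderm. ADM fell by 3.63 in ectoderm (SE 0.44, adjusted p = 1.99e-05), DDIT4 fell by 3.01 in endoderm (SE 0.40, adjusted p = 6.15e-05), and NDRG1 rose in mesoderm (4.32, SE 0.67, adjusted p = 0.000165). In endoderm, ADM was higher than in hPSC, with 737 and 823 CPM against 108 and 182.

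Across the 8 libraries the 10 genes did not follow a single pattern. Pearson's r of log2 CPM was 0.99 between PGK1 and LDHA, 0.97 between ENO1 and PKM, 0.02 between PKM and LDHB, and -0.33 between HK2 and PKM. Outside the 10 genes, those with the highest r to PKM were EDF1, CSNK2B and FDPS (0.998, 0.997 and 0.997), to LDHA CCT5, ATXN7L1 and CCDC86 (each 0.99), and to ENO2 PGAP4 (0.99), CTPS1 (0.99) and CD200 (0.98). FDPS, an enzyme of the mevalonate pathway, had 188 and 351 CPM in the hPSC libraries, 57.2 and 49.6 in those of ectoderm, 106 and 78.8 in mesoderm, and 949 and 1277 in endoderm. These r values describe 8 libraries that share groups and scaling.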

How the data were processed

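Per the labels, the 8 libraries are PacBio long reads of RNA from H1 cells. The tables the authors deposited hold a raw read count for each transcript, both of an assembly of all groups and of each group alone. Because of their column names, the deposited endoderm values carry the unit expected count here, although they are whole raw counts and were not rounded. Per the submitters' processing notes, minimap2, StringTie and GRCh38 (hg38) were used. Versions, the counter, the annotation release, strand use and the handling of reads shared with pseudogenes or paralogs are not given in the sources used here, so genes with such copies (ENO1, LDHA, PGK1, ALDOA and PKM among them) are uncertain in that respect.

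Transcript counts were summed per gene. The gene test was that of edgeR 4.0.16, run in R 4.3.3 (filterByExpr at a minimum count of 10, TMM, glmQLFit and glmQLFTest on all 8 libraries, two-sided, no repeat term, adjusted p under 0.05). The SE is the log2 fold change divided by the square root of F. DESeq2 1.42.0 was an alternative. Shares used an exact permutation test, and intervals cover counting error only. On simulated data both model tests recovered most of the changed genes, with a share of false calls above the nominal level. Promoters came from RefSeq (GRCh38.p14) and exons from GENCODE 29.

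The text names all 10 genes and, apart from some main forms, their transcripts with at least 5% of gene reads in a group. It also names the main isozyme genes of the pathway. Of each further list, at most 3 genes with the smallest adjusted p in any layer are named. The 3 genes with the highest r to PKM, LDHA and ENO2 are named as well. One gene of the list of other glycolysis genes is not reported here and was left out of that list's counts. The minor PKM and ENO1 forms were chosen after their values were seen. The 10 genes and the lists were chosen with earlier results of these data known. Alternatives covered normalization, tool, filter, transcript set, repeat number, transcript length and each library left out. Scaling by library totals alone was added after the data were seen.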

Additional observations from a re-analysis of the deposited data

How the results depend on the processing

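Over the 6 comparisons, the log2 fold changes of the 10 genes under 15 alternatives gave 900 values. Of these, 789 kept their direction and their side of the threshold, 48 lost a call, 27 gained one and 36 changed sign, of which 1 had been a called value. The cause of these changes was not tested. That value was LDHB in ectoderm against hPSC, at 0.12 with the length trend removed. The other sign changes had not been called. HK2 in ectoderm against hPSC gave 0.0041 with DESeq2 size factors, 0.0014 with the DESeq2 Wald test, 0.44 with library totals only, 0.17 with no filter, 0.13 with reference-matching transcripts only, and from -0.39 to 0.44 with single libraries left out. HK2 in endoderm against mesoderm gave -0.58 with library totals only, -0.0752 with reference-matching transcripts only, and from -0.15 to 0.20 with single libraries left out. ENO1 in ectoderm against mesoderm gave 0.15 with library totals only, 0.13 with no filter, 0.0084 with reference-matching transcripts only, 0.53 with the length trend removed, and from -0.44 to 0.38 with single libraries left out. With library totals only, HK1 and LDHB in endoderm against mesoderm gave -0.0896 and -0.328, and PGK1 in endoderm against hPSC gave -0.21. With the length trend removed, ALDOC in ectoderm against mesoderm gave 0.27 and LDHB in endoderm against mesoderm gave -0.42. With single libraries left out, ALDOA, PGK1 and LDHA in endoderm against hPSC ran from -0.0797 to 1.11, from -0.32 to 0.71 and from -0.62 to 0.46, ENO2 in ectoderm against endoderm from -0.12 to 0.25 and ALDOC in ectoderm against mesoderm (0.041 without Ectoderm repeat 2) from -0.67 to 0.04.

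With single libraries left out, the number of the 10 genes called was 7 to 9 in ectoderm, 3 to 6 in endoderm and 8 to 10 in mesoderm against hPSC, 6 to 9 in ectoderm against endoderm, 1 to 5 in ectoderm against mesoderm and 7 to 8 in endoderm against mesoderm. Other glycolysis genes called were 5 to 7, 1 to 4 and 4 to 8 in ectoderm, endoderm and mesoderm, and 4 in endoderm with library totals only. Changes in transcript choice were 0 to 4, 0 to 0 and 0 to 2, and 1 in mesoderm with Simes p-values. The range of group means was 14.3 to 19.0 percentage points for the HK2 share (adjusted p 0.0254 to 0.0762), 2.28 to 3.40 for ALDOC (0.0254 to 0.0762), 4.23 to 6.02 for ENO2 (exact permutation, adjusted p 0.019 to 0.0571) and 33.0 to 39.5 for LDHA (0.019 to 0.162).

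Library totals alone split the calls over all genes as 3647 higher and 1699 lower in ectoderm (2588 and 2692 with TMM), 992 and 2213 in endoderm (1458 and 1494), 2187 and 1469 in mesoderm (1829 and 1979), 5267 and 1956 in ectoderm against endoderm (3589 and 3248), 2443 and 1411 in ectoderm against mesoderm (1968 and 1879), and 1472 and 4016 in endoderm against mesoderm (2523 and 2586).

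The labels do not say whether same-numbered repeats of different groups were paired. Correlations of their deviations ran from -0.035 to 0.151 over the 6 pairs of groups, and were highest for hPSC with endoderm. Counting noise in genes with few reads weakens such correlations, so low values cannot show that the repeats were unpaired. With a replicate block, 8, 4 and 10 of the 10 genes were called in ectoderm, endoderm and mesoderm against hPSC, 8 in ectoderm against endoderm, 3 in ectoderm against mesoderm and 7 in endoderm against mesoderm, and mesoderm had 1 change in transcript choice (LDHA). Depth limits HK2, ALDOC and ENO2 most, with as few as 1 read in a library. The shares of all genes called with a replicate block, the length trend removed or single libraries left out are not given here.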
